A study of Mus musculus with 8 samples.

Results

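The 10 genes described here encode the core of the mTOR complexes and the proteins that switch them: Mtor, Rptor, Rictor, Mlst8, Deptor, Akt1s1, Tsc1, Tsc2, Rheb and Rps6kb1. They were chosen by symbol, and all 10 were found among the 31252 genes of the deposited tables. Each had a mean of at least 1 CPM (counts per 1000000, TMM-scaled) over the 8 libraries, as did 12137 genes in all. The libraries came from 3T3-L1 cells, a mouse preadipocyte line that a hormone cocktail turns into adipocytes. Control cells carried an empty shRNA vector, shMaf1 cells an shRNA against Maf1, and shBrf1 cells an shRNA against Brf1. A further condition received ML-60218, which inhibits RNA polymerase III, and for it the labels give neither dose, vehicle, start of treatment nor vector. Every condition was sampled at day 0, when cells had been confluent for 2 days and had not been induced, and at day 2. The day 2 cells had spent those 2 days in a cocktail of insulin (10 µg/mL), dexamethasone (2 µM), IBMX (0.5 mM) and ascorbic acid (25 µg/mL). Each of the 8 combinations of condition and day held 1 library, so no difference below has a replicate check and none carries a p-value. On each day, the 3 comparisons with control use the same control library.

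The mTOR kinase works in a pair of protein complexes that share the subunit mLST8 and the inhibitor DEPTOR. Raptor (Rptor) defines mTORC1, which drives protein and lipid synthesis and is held back by PRAS40 (Akt1s1), and Rictor defines mTORC2, which phosphorylates AKT. The small GTPase RHEB activates mTORC1, the tuberous sclerosis proteins TSC1 and TSC2 turn RHEB off, and the S6 kinase p70S6K (Rps6kb1) is a classic mTORC1 substrate. Insulin acts through this pathway, and MAF1, a repressor of RNA polymerase III, is itself a known mTORC1 substrate. Brf1 encodes a subunit of TFIIIB, an initiation factor of RNA polymerase III. All values below are mRNA levels and say nothing of kinase activity.

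The libraries held 29035505 to 31759559 estimated counts. Maf1 mRNA, the target in shMaf1, was 4.26-fold lower than in control at day 0 and 5.00-fold lower at day 2, and Brf1 mRNA in shBrf1 was 1.73-fold and 2.06-fold lower. All 6 fibroblast and preadipocyte markers were at 1 CPM or more in every library, with a summed level of 4625 to 20770 CPM. Summed levels of macrophage markers (0.815 to 1.74 CPM), endothelial markers (0.424 to 0.873 CPM) and epithelial markers (0 to 0.498 CPM) were low, and Epcam was at 0 throughout. The summed level of 6 adipocyte markers went from 30.8 to 55.5 CPM at day 0 to 285 CPM in control, 114 CPM in shMaf1, 1498 CPM in shBrf1 and 950.1 CPM with ML-60218 at day 2. The shBrf1 day 2 library stood apart in quality. Its 3′ bias score, a measure of uneven coverage where 0 means none, was 0.36 against 0.06 to 0.22 in the other 7 libraries, and 7.8% of its reads were ribosomal against 0.46% to 0.93%. Spike-in reads per 1000 aligned reads were 3.83 to 4.26 at day 0 and 4.98 to 8.14 at day 2, highest in shBrf1 and ML-60218. Scaling by them would lower the median log2 ratio of all genes between the days by 0.65 in control, 0.33 in shMaf1, 1.17 in shBrf1 and 1.25 in ML-60218, so every level below is relative to the other mRNAs of its library. In bulk RNA, fewer cells of a type and less RNA per cell cannot be told apart.

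All 10 genes were expressed at moderate levels in every library, from 20.4 CPM for Deptor in shMaf1 at day 0 to 126 CPM for Rheb in shBrf1 at day 2. Each value rests on 633 to 3668 counts. Deptor had the widest range over the 8 libraries, 4.14-fold between its lowest and highest level, followed by Tsc1 (2.80-fold), Tsc2 (2.53-fold) and Rheb (2.08-fold). Rictor, Akt1s1, Rptor and Mtor spanned 1.78-fold to 1.82-fold, Rps6kb1 1.67-fold and Mlst8 1.37-fold. The median range of the 10 genes was 0.85 on the log2 scale, and that of all genes tested was 1.00. By the deposited coordinates (mm10), Deptor lies at chr15:55112317-55259273, Tsc1 at chr2:28641233-28691172, Tsc2 at chr17:24595816-24632627 and Rheb at chr5:24802823-24842361. The shBrf1 day 2 library held the lowest level of 5 of the 10 genes, namely Mtor, Rptor, Rictor, Tsc1 and Tsc2.

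**Figure D1:**
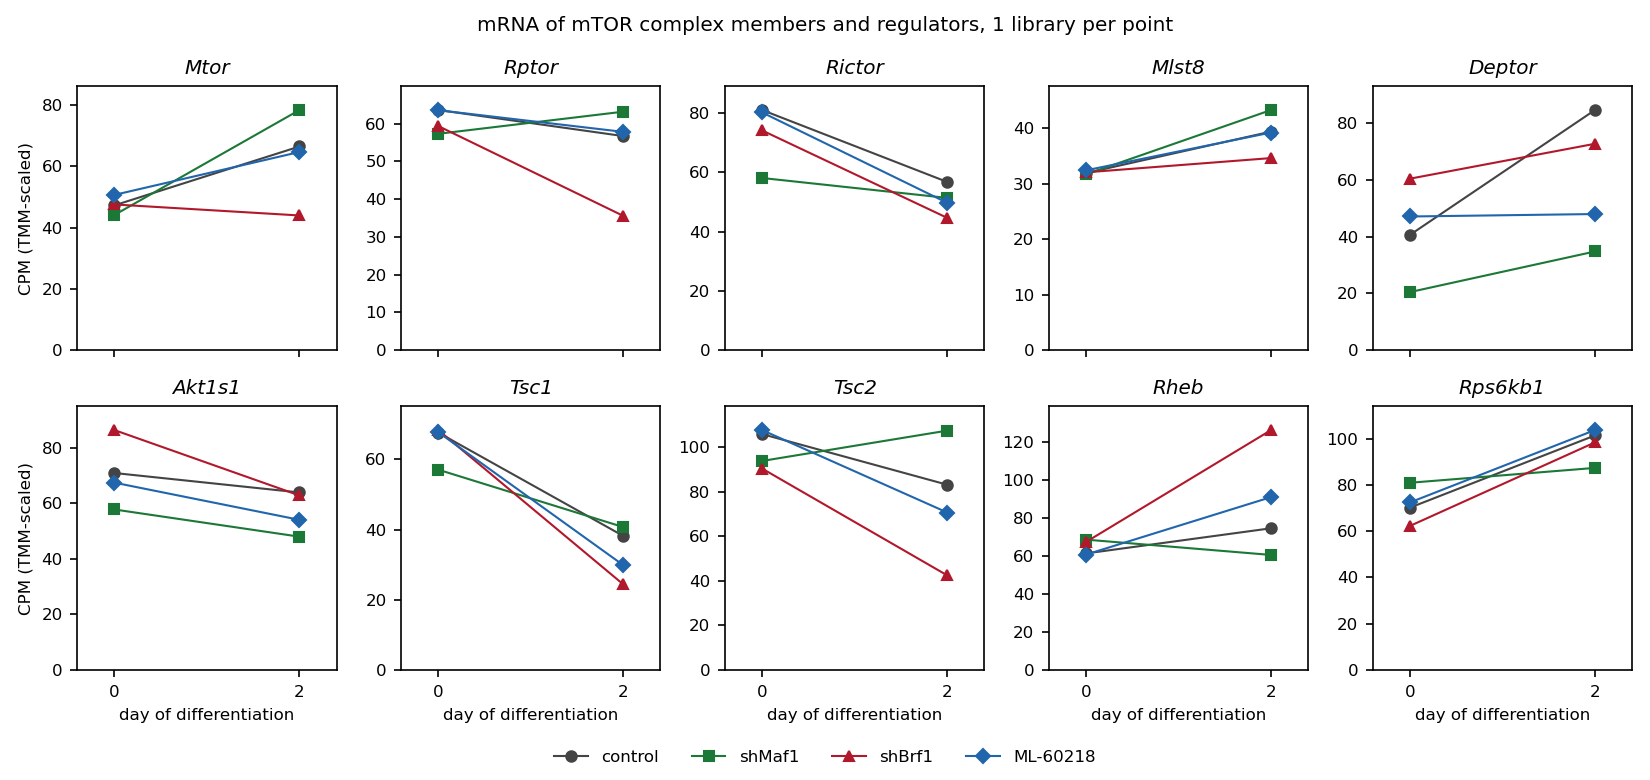
Level of each of the 10 genes in CPM (TMM-scaled, vertical axes starting at 0) at day 0 and day 2, with 1 point per library and a line joining the libraries of a condition. Deptor separates the conditions at both days, while Tsc1, Tsc2 and Rheb lie close together at day 0 and spread at day 2, with shBrf1 at 24.4, 42.5 and 126 CPM.

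Per kilobase of transcript, the small mRNAs Akt1s1 and Rheb were the most abundant of the 10 in every library. In control cells at day 0 the order ran from Akt1s1 (40.3 CPM per kb) and Rheb (34.4) through Tsc2 (16.9), Rps6kb1 (12.7), Rptor (9.64), Mlst8 (9.50), Tsc1 (8.79) and Rictor (8.70) to Mtor (5.52) and Deptor (4.75). Rptor and Mlst8 were too close to be ordered, and so were Tsc1 and Rictor. In control cells at day 2 Rheb led with 41.9 CPM per kb, and Tsc1 was last with 4.96. In shBrf1 at day 2 the span was wider, from 70.9 CPM per kb for Rheb to 3.17 for Tsc1. That library had the highest 3′ bias score (0.36), and its ratios to control differed with transcript length, as described further on. The part of length in the wider span was not tested.

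The size rule calls a gene higher or lower in a comparison when its levels differed by at least 1.5-fold, with the higher level at 1 CPM or more. Intervals in parentheses after a fold are 95% counting intervals and leave out variation between cultures. At day 0, 1 of the 10 genes was lower in shMaf1 (Deptor), where 10.1% of all genes tested passed the rule, 5.62% higher and 4.46% lower. None passed it in shBrf1 (4.33% of all genes, 2.16% higher and 2.18% lower) or in ML-60218 (1.12%, 0.404% higher and 0.717% lower). At day 2, 1 gene was lower in shMaf1, again Deptor, beside 19.2% of all genes (10.2% higher, 9.02% lower). In shBrf1 1 was higher and 4 were lower, beside 25.5% (10.7% higher, 14.7% lower). In ML-60218 1 was lower, Deptor, beside 12.8% (4.45% higher, 8.38% lower). From day 0 to day 2, 1 gene was higher and 1 lower in control, beside 37.8% (19.3% higher, 18.5% lower), and 2 were higher in shMaf1, beside 23.9% (11.6% higher, 12.3% lower). Over the same days 2 were higher and 4 lower in shBrf1, beside 53.1% (25.8% higher, 27.2% lower), and 3 were lower in ML-60218, beside 48.4% (24% higher, 24.4% lower). The share of the 10 genes past the rule was under that of all genes in 8 of 10 comparisons, and above it in the 2 that use the shBrf1 library of day 2. Several of these differences came to less than 1 gene of the 10, as in shMaf1 at day 0 and in shBrf1 between the days. The tally is therefore not read as a result about these genes. In shBrf1 against control at day 2 the median log2 ratio of the 10 genes was -0.28, beside -0.01 for all genes tested. Transcript length differs between these sets, and the median of all genes tested with transcripts over 6 kb was -0.37. With the trend on length taken out, described further on, the median of the 10 genes was -0.16, beside -0.01 for all genes tested.

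**Figure D2:**
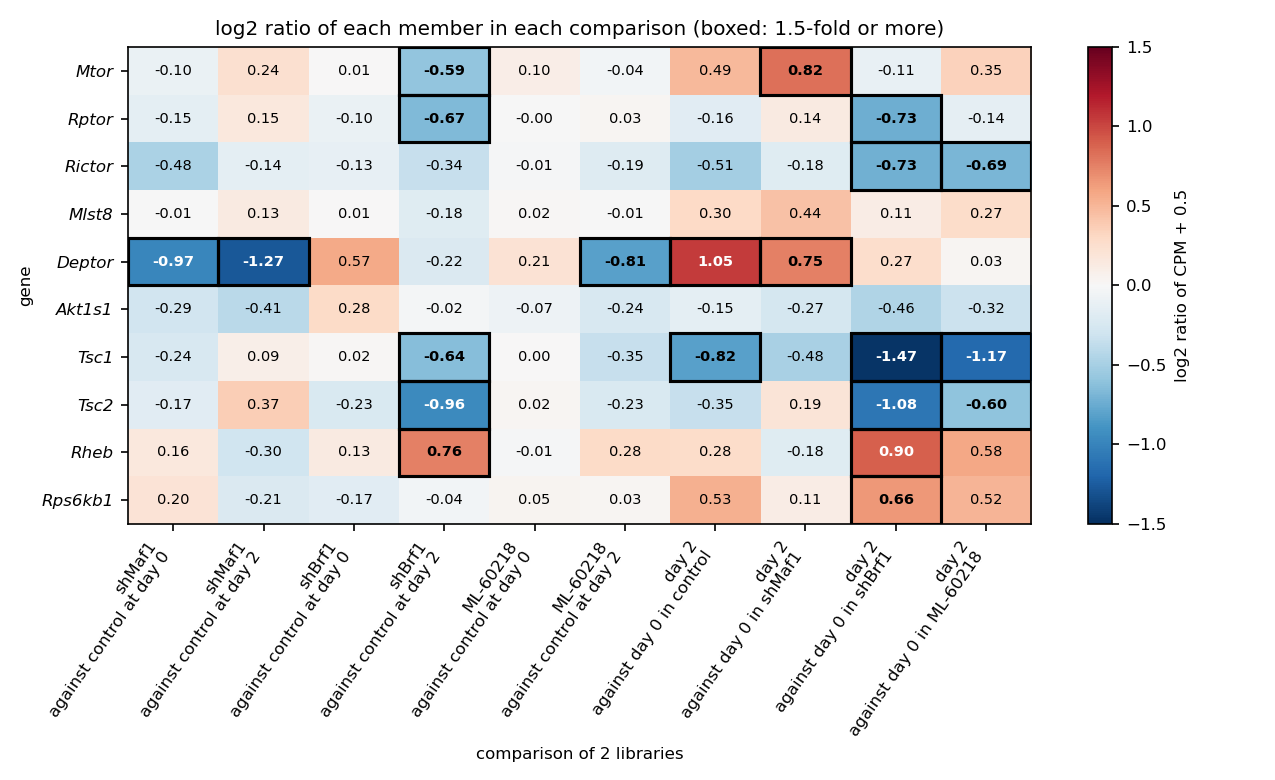
log2 ratio of CPM + 0.5 for each of the 10 genes (rows) in each of 10 comparisons of 2 libraries (columns), with red for higher and blue for lower in the first-named library, and boxes around ratios of 1.5-fold or more. Deptor is boxed in 5 columns, from -1.27 in shMaf1 at day 2 to 1.05 in control between the days, and the column of ML-60218 against control at day 0 holds no ratio beyond 0.21.

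Of the subunits common to both complexes, Mlst8 varied least and Mtor, the kinase itself, moved mainly at day 2. Mtor stood at 47.2 CPM in control, 44.1 in shMaf1, 47.5 in shBrf1 and 50.6 with ML-60218 at day 0. At day 2 it stood at 66.5, 78.4, 43.9 and 64.7 CPM in the same order. The 4 day 0 libraries were close together, and at day 2 shMaf1 was the highest and shBrf1 the lowest, 1.51-fold below control (1.41 to 1.63). Between the days Mtor was 1.78-fold higher in shMaf1 (1.66 to 1.90), while its ratio was 1.41-fold higher in control and 1.08-fold lower in shBrf1, both short of the size rule. Mlst8, which binds the kinase domain, ran from 31.7 to 32.4 CPM at day 0 and from 34.6 CPM in shBrf1 to 43.3 CPM in shMaf1 at day 2. It passed the size rule in none of the 10 comparisons.

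Rptor and Rictor, which define the complexes, differed in pattern. Rptor was low in a single library, and Rictor was lower at day 2 than at day 0 in every condition. Rptor, the mTORC1 scaffold that recruits substrates, was at 63.6 CPM in control, 57.3 in shMaf1, 59.4 in shBrf1 and 63.5 with ML-60218 at day 0. At day 2 it was at 56.7, 63.2, 35.5 and 57.8 CPM. The shBrf1 day 2 library stood alone below the other 7, 1.60-fold under control of that day (1.47 to 1.73). Rictor, the mTORC2 scaffold, was at 81.1, 58.1, 74.2 and 80.2 CPM at day 0 and at 56.8, 51.4, 44.6 and 49.7 CPM at day 2, in the same order of conditions. Its day 2 levels were all below its day 0 levels, but shMaf1 at day 0 (58.1 CPM) and control at day 2 (56.8 CPM) were close. At day 0 the shMaf1 library was the lowest, 1.40-fold below control (1.32 to 1.48). The difference between days was past the size rule in shBrf1 (1.66-fold lower, 1.55 to 1.78) and ML-60218 (1.61-fold lower, 1.51 to 1.73), and short of it in control (1.43-fold) and shMaf1 (1.13-fold). Rictor mRNA is long (9.312 kb), and with the trend of ratios on transcript length taken out, described further on, these log2 ratios went from -0.73 to -0.09 in shBrf1 and from -0.69 to -0.22 in ML-60218, both short of the rule. Within single libraries, the ratio of Rictor to Rptor counts was 1.27 in control at day 0 and 1.00 at day 2, a change of 1.27-fold (1.17 to 1.39). It was also lower at day 2 in shMaf1 (1.01 to 0.813, 1.25-fold, 1.14 to 1.37) and most so in ML-60218 (1.26 to 0.860, 1.47-fold, 1.34 to 1.61). The same ratio was 1.25 at day 0 and 1.26 at day 2 in shBrf1, a change of 1.01-fold whose interval (0.905 to 1.12) includes 1.

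Deptor, the inhibitor bound to the kinase in both complexes, separated the conditions more than any other of the 10 genes at day 0, where its highest level was 2.96 times its lowest. At day 2 it spanned 2.44-fold over the conditions, beside 2.53-fold for Tsc2. At day 0 it stood at 40.6 CPM in control, 20.4 in shMaf1, 60.4 in shBrf1 and 47.1 with ML-60218. At day 2 it stood at 84.6, 34.8, 72.7 and 48.0 CPM. The shMaf1 libraries were the lowest at both days, and control had the lowest level but one at day 0 and the highest at day 2. In shMaf1 Deptor was 1.99-fold lower than control at day 0 (1.81 to 2.18) and 2.44-fold lower at day 2 (2.26 to 2.62). In shBrf1 at day 0 it was 1.49-fold above control (1.39 to 1.60), just short of the size rule, and at day 2 its level was 1.16-fold below control. In ML-60218 it was 1.16-fold above control at day 0 and 1.76-fold lower at day 2 (1.65 to 1.89). Between the days Deptor was 2.09-fold higher in control (1.95 to 2.23) and 1.70-fold higher in shMaf1 (1.54 to 1.88), while the ratios in shBrf1 (1.20-fold) and ML-60218 (1.02-fold) did not pass the size rule.

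Deptor counts were also set against Mtor counts within each library, which needs no scaling between libraries. The 2 mRNAs have nearly the same length, 8.547 and 8.564 kb. The ratio was 0.859 in control, 0.463 in shMaf1, 1.27 in shBrf1 and 0.930 with ML-60218 at day 0, and 1.27, 0.443, 1.66 and 0.742 at day 2. It was lower in shMaf1 than in control by 1.85-fold at day 0 (1.65 to 2.08) and by 2.87-fold at day 2 (2.61 to 3.16). At day 2 the shBrf1 and ML-60218 libraries lay on opposite sides of control, 1.30-fold above (1.18 to 1.43) and 1.72-fold below (1.56 to 1.89). Summed adipocyte markers at day 2 were above control in both of these conditions and below it in shMaf1.

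Akt1s1 encodes PRAS40, the inhibitor that acts on mTORC1 through Raptor. It stood at 70.9 CPM in control, 57.8 in shMaf1, 86.3 in shBrf1 and 67.4 with ML-60218 at day 0, and at 63.9, 48.0, 62.8 and 54.0 CPM at day 2. The shMaf1 library was the lowest at each day, 1.23-fold below control at day 0 (1.15 to 1.30) and 1.33-fold below at day 2 (1.24 to 1.43). None of its 10 ratios passed the size rule, so of the 2 inhibitors, both below control in shMaf1, Deptor alone was called.

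The TSC proteins and Rheb, which act against each other on mTORC1, differed most from control in shBrf1 at day 2. Tsc2 encodes the GTPase-activating subunit that turns RHEB off. It was at 106 CPM in control, 93.8 in shMaf1, 90.4 in shBrf1 and 108 with ML-60218 at day 0, and at 83.1, 107, 42.5 and 70.7 CPM at day 2. The shBrf1 day 2 level was the lowest of the 8, 1.96-fold below control of that day (1.82 to 2.10) and 2.13-fold below its own day 0 (1.99 to 2.28). Tsc2 was also lower at day 2 than at day 0 in ML-60218 (1.52-fold, 1.44 to 1.61), a log2 ratio of -0.60 that came to -0.26 without the trend on length and so lost the call, and its ratio was 1.15-fold higher at day 2 in shMaf1. Exons of Tsc2 overlap the opposite-strand gene Pkd1 over 7.2% of their bases, and Pkd1 was at 149 CPM in control and 70.4 CPM in shBrf1 at day 2. Mlst8 shares 22.5% of its exonic bases with the opposite-strand gene Bricd5, which was at 0 to 0.270 CPM. Whether the counting used strand is not given in the sources used here.

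Tsc1 encodes hamartin, which stabilises TSC2. Its day 0 levels were 67.7 CPM in control, 57.1 in shMaf1, 68.4 in shBrf1 and 67.8 in ML-60218, and its day 2 levels were 38.2, 40.7, 24.4 and 29.9 CPM. Every day 2 library lay below every day 0 library. How many of all genes tested separate the days in this way was not counted. Between the days, 23.9% (shMaf1) to 53.1% (shBrf1) of them passed the size rule. Tsc1 was lower at day 2 by 1.77-fold in control (1.65 to 1.90), by 2.80-fold in shBrf1 (2.57 to 3.07) and by 2.27-fold in ML-60218 (2.09 to 2.47). In shMaf1 the ratio was 1.40-fold and short of the size rule. Against control at day 2, Tsc1 was 1.57-fold lower in shBrf1 (1.42 to 1.73) and 1.28-fold below control in ML-60218 (1.17 to 1.40). The ratio of Tsc1 to Tsc2 counts was lower at day 2 than at day 0 in all 4 conditions, by 1.32-fold in shBrf1 to 1.61-fold in shMaf1.

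Rheb, the GTPase that activates mTORC1, went the other way. It stood at 61.4 CPM in control, 68.7 in shMaf1, 67.5 in shBrf1 and 60.8 with ML-60218 at day 0, and at 74.7, 60.6, 126 and 91.1 CPM at day 2. The shBrf1 day 2 library was the highest of the 8, 1.69-fold above control of that day (1.60 to 1.79) and 1.87-fold above its own day 0 (1.78 to 1.98). Under scaling by spike-in reads neither call held, with log2 ratios of 0.07 against control and -0.32 against day 0. In ML-60218 Rheb was 1.22-fold above control at day 2, and in shMaf1 1.23-fold below. Rhebl1, the paralog of Rheb, was low, and at day 2 it was 1.98-fold lower in ML-60218 than in control (2.59 against 5.13 CPM).

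Rheb and Tsc2 were also compared within each library, as a ratio of counts that no scaling between libraries can move. Their transcripts differ in length (1.784 and 6.266 kb), so the ratio itself is not read as relative abundance. Its changes between libraries are not free of length either, because ratios of all genes differed with length, as described further on. In shBrf1 against control at day 2, the log2 ratios of Rheb and Tsc2 were 0.76 and -0.96. They were 0.60 and -0.68 with the trend on length taken out. The ratio was 0.580 in control, 0.733 in shMaf1, 0.746 in shBrf1 and 0.565 with ML-60218 at day 0, and 0.899, 0.565, 2.98 and 1.29 at day 2. At day 2 it was 3.31-fold higher in shBrf1 than in control (3.03 to 3.62), 1.43-fold higher in ML-60218 (1.32 to 1.56) and 1.59-fold lower in shMaf1 (1.47 to 1.73). The order of the 4 conditions at day 2, shMaf1, control, ML-60218 and shBrf1, was also the order of the summed adipocyte markers (114, 285, 950.1 and 1498 CPM) and of the 3′ bias score (0.08, 0.15, 0.22 and 0.36). The part of either in the ratio was not tested, and with 1 library per condition they cannot be told apart.

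**Figure D3:**
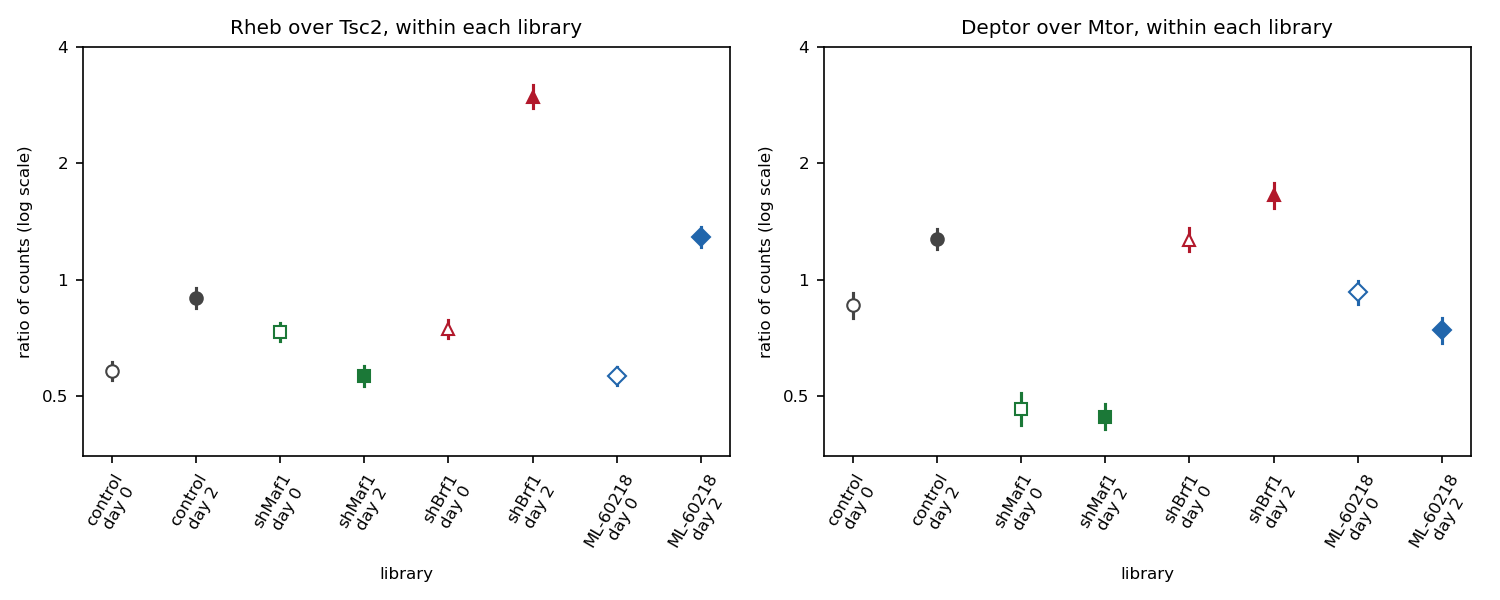
Ratio of counts within each of the 8 libraries on a log axis, for Rheb over Tsc2 (left) and Deptor over Mtor (right), with open symbols for day 0, filled symbols for day 2 and bars for the 95% counting interval. Rheb over Tsc2 reaches 2.98 in shBrf1 at day 2 against 0.565 to 1.29 in the other libraries, and Deptor over Mtor is lowest in the shMaf1 libraries at 0.463 and 0.443.

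The upstream sequences of these 3 genes are shown because Rheb and the Tsc genes differed in opposite directions in the same library. RefSeq promoter windows on GRCm38.p6 were held for 9 of the 10 genes, and Deptor was the missing entry. The 250 bases before the annotated start are printed 5′ to 3′ on the strand of the gene, at chr2:28640983-28641232 (plus strand) for Tsc1, chr17:24632628-24632877 (minus strand) for Tsc2 and chr5:24842362-24842611 (minus strand) for Rheb. Capitals mark matches to CACGTG (an E-box), TGACG (the core of a cAMP response element) or GGGCGG (a GC box), searched on both strands.
Tsc1: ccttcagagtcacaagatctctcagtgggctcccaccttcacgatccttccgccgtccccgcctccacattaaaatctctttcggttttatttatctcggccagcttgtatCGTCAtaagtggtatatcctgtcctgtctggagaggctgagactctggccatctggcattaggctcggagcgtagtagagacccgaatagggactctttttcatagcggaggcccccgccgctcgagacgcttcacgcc
Tsc2: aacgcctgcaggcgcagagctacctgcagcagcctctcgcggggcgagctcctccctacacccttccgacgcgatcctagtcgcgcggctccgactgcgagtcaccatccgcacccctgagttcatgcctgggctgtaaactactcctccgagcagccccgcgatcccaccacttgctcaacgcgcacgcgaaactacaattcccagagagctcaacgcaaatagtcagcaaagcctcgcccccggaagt
Rheb: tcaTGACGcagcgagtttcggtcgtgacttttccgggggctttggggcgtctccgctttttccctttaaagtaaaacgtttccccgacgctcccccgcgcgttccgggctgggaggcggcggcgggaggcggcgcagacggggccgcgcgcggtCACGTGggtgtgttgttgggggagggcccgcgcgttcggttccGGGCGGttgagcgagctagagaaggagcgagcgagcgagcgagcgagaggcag
Rheb held all 3 motifs, with the E-box 96 to 91 bases upstream of the start, and none of these matches overlapped another. Tsc1 held the cAMP element core on its opposite strand, 139 to 135 bases upstream, and Tsc2 held none of the 3. Among 32851 windows of the same length, 6.02% held the E-box, 17.8% the cAMP element core and 32.7% the GC box. These matches describe letters only, and no binding was measured.

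Rps6kb1, the S6 kinase downstream of mTORC1, was higher at day 2 than at day 0 in every condition, relative to the other mRNAs. It stood at 70.1 CPM in control, 80.9 in shMaf1, 62.2 in shBrf1 and 72.4 with ML-60218 at day 0, and at 101, 87.3, 98.4 and 104 CPM at day 2. All day 2 libraries were above all day 0 libraries, and how many of all genes tested do the same was not counted. The difference was past the size rule in shBrf1 (1.58-fold higher, 1.49 to 1.68), a log2 ratio of 0.66 that turns to -0.56 under scaling by spike-in reads, and was 1.08-fold to 1.45-fold in the other conditions. These are log2 ratios of 0.53 in control, 0.11 in shMaf1 and 0.52 in ML-60218. Scaling by spike-in reads shifts the median of all genes by -0.65, -0.33 and -1.25 in the same order, each larger in size than the ratio. The direction between the days thus depends on the scaling in every condition. No comparison against control passed the size rule, and at day 2 its ratio to control was 1.03-fold lower in shBrf1 and 1.02-fold higher in ML-60218, both with intervals that include 1.

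Transcript length moved with several of these differences. In shBrf1 against control at day 2, the median log2 ratio of all genes tested was 0.23 for transcripts up to 2 kb and -0.37 for those over 6 kb. The same medians were 0.11 and -0.11 in ML-60218. Rheb (1.784 kb) is short, and Mtor (8.564 kb), Rptor (6.594 kb), Tsc1 (7.702 kb) and Tsc2 (6.266 kb), the 4 genes lower in shBrf1, are all long. With the trend on length taken out of that comparison, Tsc2 (log2 ratio -0.68) and Rheb (0.60) remained past the size rule, and Mtor (-0.21), Rptor (-0.36) and Tsc1 (-0.29) did not. Akt1s1, almost as short as Rheb at 1.757 kb, had a log2 ratio of -0.02 before and -0.19 after. Deptor, among the longest at 8.547 kb, kept log2 ratios of -0.79 and -1.36 in shMaf1 and -0.70 in ML-60218 at day 2, and its ratio of 0.63 in shBrf1 at day 0 then passed the size rule. Between the days, Tsc1 kept -0.91 in shBrf1 and -0.76 in ML-60218 but came to -0.53 in control, short of the rule, as did Rptor in shBrf1 (-0.23), Rictor in shBrf1 and ML-60218, and Tsc2 in ML-60218. In the other direction, Mtor then passed the rule in control (0.78) and ML-60218 (0.79), and so did Rps6kb1 in control (0.74) and ML-60218 (0.81). In shBrf1 between the days, Deptor (0.87) and Akt1s1 (-0.76) passed it as well. Over all 10 comparisons, all 6 higher calls and 7 of 15 lower calls of the 10 genes held without the trend, whereas scaling by spike-in reads kept all 15 lower calls and none of the 6 higher calls, which include Deptor between the days in control (0.38) and in shMaf1 (0.42) and Mtor in shMaf1 (0.49). The part of length in these results was not tested beyond these values.

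**Figure D4:**
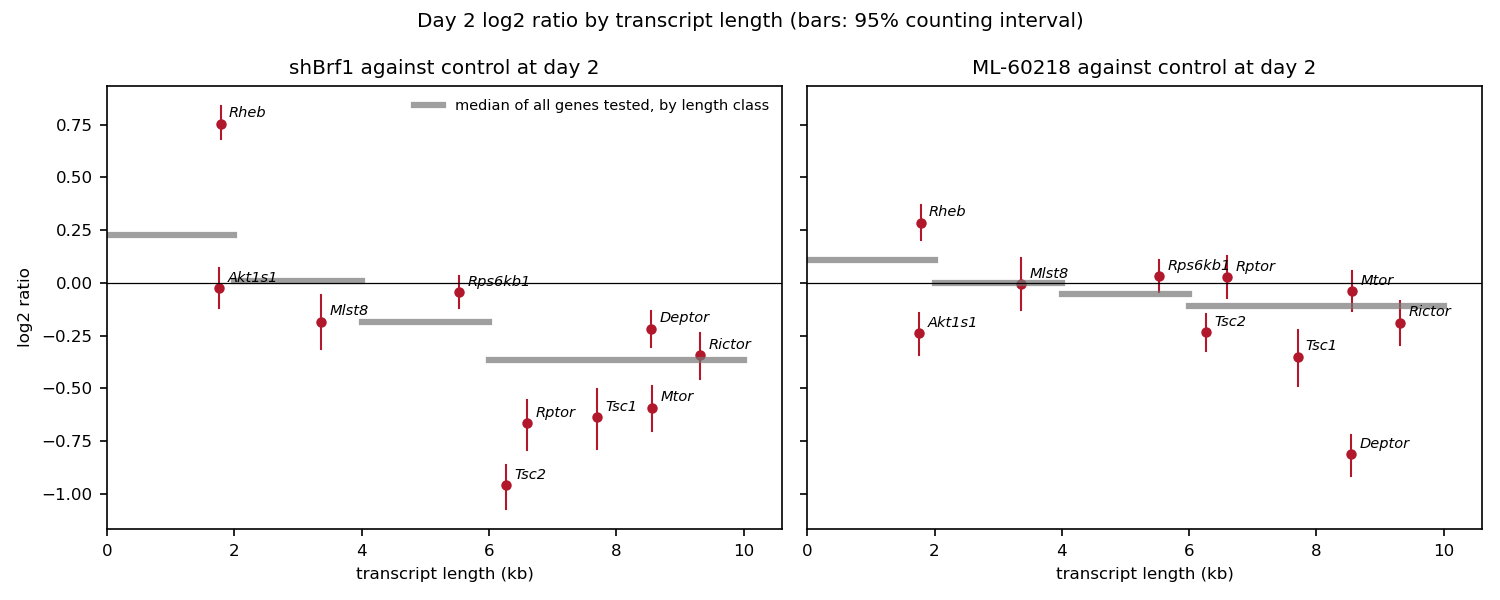
log2 ratio at day 2 against transcript length in kb for the 10 genes (red points, bars for the 95% counting interval), in shBrf1 against control (left) and ML-60218 against control (right), with gray segments at the median of all genes tested in each length class. Tsc2 (-0.96) and Rheb (0.76) lie farthest from the gray segments on the left, and Deptor (-0.81) on the right.

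The wider pathway was followed in 7 lists with 89 genes, written from textbook knowledge. In control cells between the days, the 7 lists together had 13 of 82 tested genes higher (15.9%) and 12 lower (14.6%). Among all genes 19.3% were higher and 18.5% lower, so both shares of the lists were under the background. In the list of energy and stress sensing, 5 of 9 tested genes were higher and none was lower. They included Ddit4, which encodes the mTORC1 inhibitor REDD1, at 41.1 CPM on day 0 and 175 CPM on day 2 (4.26-fold, 4.01 to 4.52), and the AMPK subunit gene Prkag2 (2.56-fold). Under scaling by spike-in reads, Ddit4 (log2 ratio 1.41) and Prkag2 (0.66) stayed past the rule. Strada, the next highest of the list, went from 0.85 to 0.19 and lost the call. Of the 18 tested genes of amino acid sensing, 5 were lower and none higher, among them Fnip1 (2.52-fold) and Flcn (2.18-fold), which encode partners in a GTPase-activating complex for Rag proteins, and the leucine transporter Slc7a5 (2.13-fold). In the list of mTORC2 subunits and AGC kinases 1 of 10 was higher, the subunit gene Prr5 (3.49-fold), and 3 were lower, among them the related Prr5l (2.68-fold). Of 12 growth factor genes 4 were higher and 3 lower. The insulin receptor substrates went in opposite directions, with Irs2 4.20-fold higher and Irs1 2.81-fold lower, and the PI3K subunit gene Pik3r1 was 2.70-fold higher. The mTORC1 effector list had 3 of 15 higher, led by Lpin1, an mTORC1-regulated phosphatidate phosphatase (3.69-fold), and none lower. Lpin1 stayed past the rule without the trend on length (log2 ratio 2.07) and under scaling by spike-in reads (1.19). Rps6 (0.75) and Eif4ebp2 (0.64), also called higher, fell short of it without the trend (0.40 and 0.44). They did so under spike-in scaling as well (0.07 and -0.02). The list of GATOR1, GATOR2 and KICSTOR, which relay amino acid supply, had 1 of 11 lower, Wdr59 (1.64-fold, a log2 ratio of -0.70 that came to -0.51 without the trend on length), and the list of the TSC partner, the Rheb paralog and mTOR assembly factors had 0 of 7 in either direction. Median log2 ratios were 0.62 for the energy list, 0.24 for the effectors, 0.14 for the GATOR list, 0.10 for the assembly list, -0.11 for the amino acid list, -0.13 for the mTORC2 list and -0.28 for the growth factor list, beside 0.05 for all genes tested. Scaling by spike-in reads shifts the median of all genes in this comparison by -0.65, larger in size than any of these list medians.

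In shBrf1 against control at day 2, the 7 lists together had 2 of 82 tested genes higher (2.44%) and 11 lower (13.4%), beside 10.7% higher and 14.7% lower among all genes, so the lower share was near the background. The mTORC1 effector list had 2 of 15 higher and none lower, namely Lpin1 (2.77-fold, 54.1 to 150 CPM) and the cap-binding factor gene Eif4e (1.61-fold). Under scaling by spike-in reads the log2 ratio of Lpin1 went from 1.46 to 0.78. That of Eif4e went from 0.68 to 0.003 and so lost the call. The amino acid list had 4 of 18 lower, including Gatsl2, also called Castor2, an arginine sensor gene family member (2.79-fold), and Sesn3, of the sestrins (2.48-fold). The growth factor list had 3 of 12 lower, the receptor gene Igf1r (2.15-fold), the PI3K subunit gene Pik3r2 (1.95-fold) and Irs2 (1.91-fold). The mTORC2 list had 2 of 10 lower, Ndrg1 (3.04-fold) and Prkca (1.82-fold). The GATOR list had 2 of 11 lower, among them Depdc5 (1.54-fold), while the energy list (9 tested) and the list of the TSC partner and assembly factors (7 tested) had none past the rule. With the trend on length taken out, 8 of the 12 genes that the naming rule gives here stayed past 1.5-fold in the same direction. Among those that did not were Prkca, Slc38a9 and Depdc5, with transcripts of 8.409, 8.91 and 8.216 kb. Median log2 ratios ran from -0.25 (growth factor list) to 0.29 (energy list), beside -0.01 for all genes, and that of the effector list was -0.08 although both of its called genes were higher.

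In shMaf1 at day 2, 5 of 82 list genes were higher (6.10%) and 6 lower (7.32%), beside 10.2% higher and 9.02% lower among all genes. The mTORC1 effector list had 3 of 15 lower and none higher. These were Maf1 itself, Lpin1 (2.07-fold) and the kinase gene Eef2k (1.93-fold), which inhibits elongation. The amino acid list had 3 of 18 higher and none lower, Slc7a5 (1.79-fold) and the sestrin genes Sesn3 and Sesn2 (both 1.51-fold). The growth factor list had 1 of 12 higher, Irs1 (1.57-fold), and 2 lower, among them the AKT phosphatase gene Phlpp1 (1.61-fold). In the mTORC2 list Prr5l was higher (1.97-fold) and the kinase gene Sgk1 lower (1.56-fold). The GATOR, energy and assembly lists had none past the rule. Without the trend on length, Sesn3 (log2 ratio 0.51), Sesn2 (0.57) and Irs1 (0.56) fell short of the rule, and the other 8 of the 11 genes that the naming rule gives here held. Under scaling by spike-in reads, Sgk1 (-0.48) and Phlpp1 (-0.52) fell short of it. Median log2 ratios of the 7 lists ran from -0.23 (energy list) to 0.06 (GATOR list), beside -0.00 for all genes. In ML-60218 at day 2, 4 of the 82 list genes passed the rule, Lpin1 (2.17-fold) and Ddit4 (1.88-fold) higher, and Igf1r (1.59-fold) and Rhebl1 lower, beside 4.45% higher and 8.38% lower among all genes. Igf1r fell short of the rule without the trend on length (-0.51), and Lpin1 (0.50) and Ddit4 (0.30) did so under scaling by spike-in reads. Lpin1 was thus at 54.1 CPM in control, 26.1 in shMaf1, 150 in shBrf1 and 117 with ML-60218 at day 2. This is the order of the summed adipocyte markers and also that of the 3′ bias score. That shared order is a description over 4 libraries, and the part of either was not tested.

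At day 0, 4 of 82 list genes passed the size rule in shMaf1 (4.88%, beside 10.1% of all genes) and 4 in shBrf1 (4.88%, beside 4.33%). In shMaf1, the ribosomal protein gene Rps6, whose product p70S6K phosphorylates, was 1.65-fold higher, and Pdcd4, an inhibitor of translation initiation, 1.54-fold higher. Maf1 itself and 1 growth factor gene under 5 CPM were lower. In shBrf1, Lpin1 (1.57-fold) and Irs1 (1.61-fold) were higher and Prr5l (1.54-fold) and Pik3cb (1.61-fold) lower. Without the trend on length, Pdcd4 in shMaf1 (log2 ratio 0.58) and Prr5l in shBrf1 (-0.58) fell just short of the rule. Under scaling by spike-in reads, Rps6 (0.55) and Pdcd4 (0.44) in shMaf1 and Lpin1 (0.51) and Irs1 (0.55) in shBrf1 fell short of it. In ML-60218 none of the 7 lists had a gene past the size rule, and their medians ran from -0.07 to 0.10, beside 0.01 for all genes.

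The likeness of other genes to Deptor was described by Pearson's r of log2 CPM over the 8 libraries, among 9903 genes with a mean of at least 5 CPM. The 5 closest were Dcaf8 (r = 0.96), Brat1 (0.95), Rc3h1 (0.95), Gpr155 (0.95) and Tango2 (0.95). Gpr155 stood at 21.2 CPM in control, 12.4 in shMaf1, 32.1 in shBrf1 and 22.8 with ML-60218 at day 0, and at 38.3, 23.7, 38.9 and 32.2 CPM at day 2, so its lowest level was also in shMaf1 at day 0. The other 9 genes of the mTOR list had r between -0.50 (Tsc2) and 0.46 (Rheb). These 8 points share scaling and hold both day and condition, and the closest of so many genes have a high r by selection.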

How the data were processed

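Poly(A) RNA libraries were made with a stranded mRNA kit, per the labels' protocols, and aligned with STAR 2.4 to mm10, per the submitters' processing notes. The authors deposited 6 tables that hold an estimated count for every gene and library, an expected count of read pairs written as a whole number, with no normalisation. Their deposited log2 fold change was used only as an alternative, and their p-values were not used, since 1 library per group allows no test. The deposited quality tables give a score of 3′ bias, the percent of ribosomal reads and of ambiguous reads (44.35% to 49.98%), and the counts of spike-in and aligned reads.

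Counts of the 8 libraries were scaled together with TMM (edgeR 4.0.16, R 4.3.3) and given as CPM. Log2 ratios used a pseudocount of 0.5 CPM. A difference counted at 1.5-fold or more with the higher level at 1 CPM or more. Fold intervals are exact conditional binomial (Clopper-Pearson) 95% intervals, and intervals of changes in a ratio of 2 genes use the normal approximation on the log scale. Reads carry no molecular identifiers, so both cover counting error only. The calculation was tested on simulated counts. Lengths came from GENCODE M21 and were found for 96.0% of the 12137 genes tested. Promoters came from RefSeq GRCm38.p6. Fold changes in the text compare CPM without the pseudocount.

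All 10 genes were named in every comparison. From each pathway list, up to 3 highest and 3 lowest genes past the size rule that reach 5 CPM were eligible, and the text gives a selection; the results of some genes of these lists are left out. For likeness, the 5 named genes with the highest r to the gene of widest range were taken. The genes and lists were chosen with earlier results of these data known. Other settings tried were size factors from DESeq2 1.42.0, scaling by spike-in reads or by library totals alone, a pseudocount of 1 or 0.1 CPM, a floor of 5 CPM or none, a 2-fold rule, removal of a trend on transcript length (lowess fraction 0.3) and the authors' log2 values. Other steps ran in Python 3.11.15 (statsmodels 0.14.6, scipy 1.17.1, pandas 2.3.3, numpy 2.4.6, matplotlib 3.10.9).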

Additional observations from a re-analysis of the deposited data

Results flagged for a closer look

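The change from day 0 to day 2 went in opposite directions in some conditions for 4 genes, with 1 side past 1.5-fold, and the difference was not tested because each condition holds 1 library per day. On the log2 scale, Mtor changed by 0.82 in shMaf1 and by -0.11 in shBrf1. Rptor changed by 0.14 in shMaf1 and by -0.73 in shBrf1. Tsc2 changed by 0.19 in shMaf1, by -1.08 in shBrf1 and by -0.60 in ML-60218. Rheb changed by -0.18 in shMaf1 and by 0.90 in shBrf1. Against control, Deptor in ML-60218 stood at 0.21 at day 0 and at -0.81 at day 2, again a difference that was not tested. The opposite signs depend in part on the processing. With the trend on length removed, Mtor in shBrf1 came to 0.49, the same sign as in shMaf1, while Rptor, Tsc2, Rheb and Deptor kept opposite signs. Under scaling by spike-in reads, Rptor (-0.19) and Tsc2 (-0.14) in shMaf1 were below 0 as in shBrf1, and Rheb was below 0 in both shMaf1 (-0.51) and shBrf1 (-0.32), while Mtor (0.49 in shMaf1, -1.32 in shBrf1) and Deptor kept opposite signs.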

How the results depend on the processing

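With DESeq2 size factors, library totals, both pseudocounts, no floor, a floor of 5 CPM and, for the 6 comparisons it covers, the authors' deposited log2 fold change, the number of the 10 genes past the size rule stayed within 1.5 times its main value in every comparison. Single calls near the rule were still lost. Mtor in shBrf1 against control at day 2 fell just short with DESeq2 size factors (log2 ratio -0.57). Rps6kb1 in shBrf1 between the days fell short with library totals (0.43). Spike-in scaling lowered the median log2 ratio of all genes by up to 1.25 (ML-60218 between the days), by 1.17 in shBrf1 between the days and, against control at day 2, by 0.64 in shBrf1 and 0.58 in ML-60218. Under it the count was 2 in shMaf1 at day 0, at day 2 it was 9 in shBrf1 and 7 in ML-60218, and, between the days, 5 in control and 10 in ML-60218. In shMaf1 between the days the count stayed at 2, but 2 higher and 0 lower became 0 higher and 2 lower, with 0 calls shared. In shBrf1 between the days 2 higher and 4 lower became 0 higher and 8 lower, with 4 shared. There spike-in scaling reversed the called ratios of Rheb (-0.32) and Rps6kb1 (-0.56). Ratios short of the size rule could change sign as well, such as Mtor in control between the days (0.49 to -0.18). Under the 2-fold rule the count was 0 in shMaf1 at day 0, at day 2 it was 0 in shBrf1 and 0 in ML-60218, and, between the days, 1 in control, 0 in shMaf1, 2 in shBrf1 and 1 in ML-60218. This rule is stricter by construction. With the trend on length removed the count was 1 in shBrf1 at day 0 and 2 in shBrf1 at day 2. Between the days this removal changed which genes were called at similar counts. In control 1 higher and 1 lower became 3 higher and 0 lower, with 1 call shared. In ML-60218 0 higher and 3 lower became 2 higher and 1 lower, with 1 shared. In shBrf1 2 higher and 4 lower became 3 and 3, with 4 shared. The cause of the other shifts was not tested. No paired analysis was possible because each group holds 1 library, and for the same reason no library could be left out.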
